A study of Arabidopsis thaliana with 12 samples.

Results

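A group of 77 genes of Arabidopsis thaliana was more abundant in the light than in the dark in intact rosettes and less abundant after wounding in the light. The genes were chosen on the measured values. From group means of log2 values, the intact rosettes in the light had to exceed those in the dark by at least 1, and the wounded rosettes in the light had to lie at least 1 below the intact ones. Each difference had to keep its sign in all 3 independent replicate experiments, and the mean of intact rosettes in the light had to be at least 5. Of 13356 genes with a probe set of their own, each represented by its brightest one, 80 met these conditions. CYP71B26, MYC4 and EXPB1 were left out by name, which left the 77. The annotation gives 9 of them a symbol and lists the other 68 by locus identifier only. No function is stated here for a gene with no symbol, apart from 2 loci with a known name.

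The study crossed wounding with light on 12 Affymetrix arrays, so that the response to a wound could be read with and without light. Plants grew on a cycle of 10 h light and 14 h dark, were transplanted at 10 days, and then stood for 30 min at 22 °C in a cabinet. The 4 groups of 3 arrays were wounded rosettes in the light, intact rosettes in the light, wounded rosettes in the dark and intact rosettes in the dark, and whole rosettes were cut 60 min later. The light was 250 µmol m-2 s-1 of photosynthetically active radiation. Wounds were made with a metal haemostat, under a safelight in the dark. All plants are Arabidopsis thaliana, and neither an accession nor their age at wounding is stated. Each array carried 1 RNA extract pooled from 15 to 17 plants, and each replicate experiment held all 4 treatments. No group was collected before the treatments, so a level higher in the light cannot be told apart from one lowered by the dark. The treatment text of dark wounded replicate 2 is only an abbreviation, and its title and source name placed it.

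In leaves, light acts on transcripts through photoreceptors such as phytochromes and cryptochromes, through the circadian clock and through the sugars that photosynthesis makes, while darkness draws on stored carbon. Crushing a leaf releases jasmonates and calcium signals within minutes. Genes of defence are then switched on and many genes of growth and metabolism are turned down. In whole rosettes, fewer cells that express a gene and less of its RNA per cell cannot be told apart.

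The values are those deposited by the authors, made with GCRMA on the log2 scale, on which 1 unit is a 2-fold difference. Of 22810 probe sets, 13567 reached 4 on at least 3 arrays and were tested with limma, and all 77 genes were among them. Of the 77, 4 reached 4 on intact arrays in the light only. Array medians lay between 5.40 and 5.6. Of 6 leaf markers 2 could be read, RCA of Rubisco activase and PSAE-1 of photosystem I, and their group means were 14.77 to 15.19, near the highest value of any array (15.85). Of 6 root markers 1 was bright enough to test, PYK10, with group means of 7.67 to 8.70, and none of these 3 was called in any comparison. The array's 25S rRNA control averaged 7.36 ± 1.06 in wounded and 7.27 ± 0.33 in intact rosettes in the light, and 7.57 ± 0.77 in wounded and 9.62 ± 0.95 in intact rosettes in the dark (SD, n = 3 each). It was thus highest in intact rosettes in the dark, and differed both with wounding in the dark and between light and dark in intact rosettes. Results with it as a covariate are given for wounding in the dark and for light in wounded rosettes. The choice of the genes was not repeated with it.

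Over the 77 genes, the values that chose them ran as follows. The difference between light and dark in intact rosettes was 1.01 to 4.70 with a median of 1.58, where all tested probe sets had a median of 0.07. Wounded rosettes in the light lay 1.0 to 2.96 below intact ones, and the median change of the 77 was -1.36, where the median of all tested probe sets was -0.15. For reference, limma called 73 of them higher in the light in intact rosettes (12.3% of all tested probe sets were called higher) and 55 lower by wounding in the light (6.37% were called lower), with none called higher by wounding (8.48% were). The light arrays lay above all dark arrays in intact rosettes for 74 of the 77 (21.4% of all tested). These counts follow from the choice and are a description only. Just inside the limits lay AT1G01250 (a wound change in the light of -1.001) and AT1G78170 (a light difference of 1.01), and just outside lay RR16 (a wound change in the light of -0.996) and AT1G55265 (a light difference of 0.99).

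**Figure D1:**
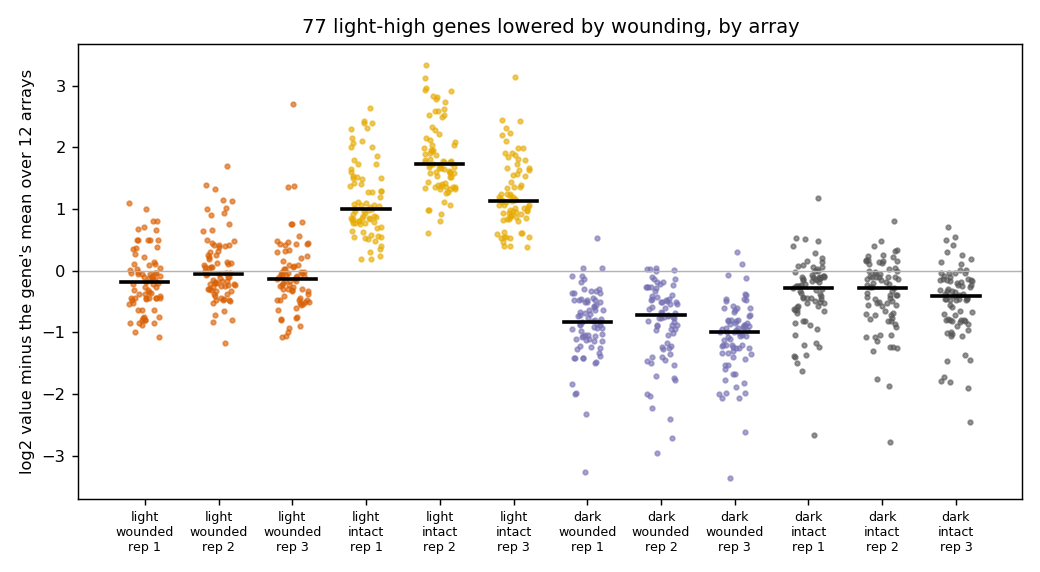
Log2 value of each of the 77 genes minus its own mean over the 12 arrays (y axis) on each array (x axis), with points for genes and bars for the median of the 77. The intact arrays in the light stand highest because the genes were chosen so, light intact replicate 2 is the highest of them, and the wounded arrays in the dark, which played no part in the choice, stand lowest.

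The 2 conditions of the choice share the intact arrays in the light, so an error in those arrays moves both. The median of the 77 genes was 5.92, 6.18 and 6.01 on the 3 wounded arrays in the light, 7.29, 8.03 and 7.61 on the intact arrays in the light, 5.00, 5.18 and 4.94 on the wounded arrays in the dark, and 5.85, 5.74 and 5.59 on the intact arrays in the dark. Light intact replicate 2 was the highest of its group for 59 of the 77 genes, replicate 1 for 6 and replicate 3 for 12. Without light intact replicate 2, 46 genes met the conditions, 39 of them from the 77, whereas 116 met them without replicate 1 and 107 without replicate 3. The plot of the 77 genes by array shows this array above the others of its group. By experiment the median wound change in the light was -1.23, -1.78 and -1.29, and the median light difference in intact rosettes 1.22, 2.0 and 1.56. The number and part of the membership rest on 1 array, and the tests below are also given for the 39 genes that did not need it.

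After wounding in the light the genes differed in how far they came down. For 22 of the 77 the mean of wounded rosettes in the light was at or below that of intact rosettes in the dark. The distance of wounded rosettes in the light above intact rosettes in the dark was also taken as a share of the light difference in intact rosettes. On the log2 scale its median was 12.3%, with 43 genes under 20% and 7 over 50%. These groups chose the genes and a fall of at least 1 was required, so the shares and the 22 are a description only. The share is not the light difference within wounded rosettes, which is given further below. The wounded rosettes in the dark had the lowest mean of the 4 groups for 63 genes, the intact rosettes in the dark for 12 and the wounded rosettes in the light for 2. The choice puts intact rosettes in the light highest for all 77, so this ranking is partly fixed by it. No share over all tested probe sets was computed for it.

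Several of the 10 largest falls by wounding in the light belonged to genes that were dim elsewhere. AT3G17640 had 2.24, 2.24 and 2.56 in wounded and 5.35, 5.95 and 4.60 in intact rosettes in the light, and 2.17, 2.16 and 2.20 in wounded and 2.53, 2.32 and 2.18 in intact rosettes in the dark. It reached 4 in intact rosettes in the light only, and its wounded arrays in the light lay at the level of the dark. Without light intact replicate 2 its mean there fell under the minimum of 5, and it left the group. AT2G39920 stood at 3.1, 4.27 and 2.96 in wounded and 6.26, 6.79 and 4.39 in intact rosettes in the light, against 2.83, 2.92 and 2.86 in wounded and 3.17, 3.90 and 2.83 in intact rosettes in the dark, and its intact arrays in the light spread by over 2 log2 units. AT1G11700 had 3.26, 3.46 and 2.71 in wounded and 4.49, 6.57 and 5.36 in intact rosettes in the light, and 3.06, 3.02 and 2.57 in wounded and 3.40, 4.11 and 3.41 in intact rosettes in the dark. In both genes the highest value was that of light intact replicate 2, and AT1G11700 left the group without that array. AT4G30400 showed 3.63, 3.79 and 3.60 in wounded and 5.74, 6.63 and 5.25 in intact rosettes in the light, with 3.08, 2.84 and 2.94 in wounded and 3.64, 3.30 and 3.62 in intact rosettes in the dark. Its 9 arrays outside intact light stayed below 4. The order of these 4 genes among the largest falls rests on deposited values below 4. With the wounded level set to that minimum, the intact level in the light was at least 2.46-fold higher for AT3G17640, 3.51-fold for AT2G39920, 2.77-fold for AT1G11700 and 3.66-fold for AT4G30400.

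Brighter among the largest falls were AT5G47610, AT5G59350 and AT1G49470. AT5G47610 had 5.59, 6.09 and 5.92 in wounded and 7.74, 8.80 and 7.67 in intact rosettes in the light, a difference of -2.20 or 4.6-fold, and 4.99, 5.42 and 5.90 in wounded and 6.56, 5.95 and 6.97 in intact rosettes in the dark. The wounded arrays were below the intact ones in both light conditions, although the change in the dark did not pass (-1.06 ± 0.35, SE, limma adjusted p = 0.102). AT5G59350 had 5.94, 6.03 and 6.07 in wounded and 7.84, 8.80 and 7.97 in intact rosettes in the light, and 4.84, 4.71 and 3.98 in wounded and 5.32, 5.07 and 5.18 in intact rosettes in the dark. Its 4 groups of arrays formed 4 separate levels, with wounded rosettes in the dark lowest. AT1G49470 had 6.19, 6.55 and 6.56 in wounded and 8.11, 8.81 and 8.27 in intact rosettes in the light, and 6.17, 6.58 and 5.91 in wounded and 6.93, 7.84 and 6.44 in intact rosettes in the dark. In AT1G49470 the wounded levels in light and dark overlapped. AT5G11930 had 3.88, 5.89 and 4.03 in wounded and 6.25, 7.45 and 6.86 in intact rosettes in the light, and 4.04, 4.24 and 3.99 in wounded and 3.59, 4.72 and 4.51 in intact rosettes in the dark. AT5G64550 had 5.39, 5.95 and 5.25 in wounded and 7.50, 8.58 and 6.40 in intact rosettes in the light, and 4.98, 5.18 and 4.94 in wounded and 5.22, 5.75 and 5.05 in intact rosettes in the dark. For both, the intact dark arrays overlapped the wounded arrays of the light, and replicate 2 was the highest intact array in the light.

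Of the 77 genes, 11 have a role that can be stated, and they fall into plant hair and leaf development, transport, glycosylation, other metabolism and light signalling. GLABROUS INFLORESCENCE STEMS (GIS), a zinc finger protein that promotes plant hairs, or trichomes, of the inflorescence downstream of gibberellin, had 3.51, 4.21 and 4.77 in wounded and 5.51, 6.35 and 6.55 in intact rosettes in the light, and 3.51, 2.97 and 2.79 in wounded and 4.22, 3.83 and 3.53 in intact rosettes in the dark. TRIPTYCHON (TRY), a small MYB protein that keeps neighbouring cells from becoming trichomes, had 6.36, 7.14 and 6.20 in wounded and 7.90, 8.14 and 8.10 in intact rosettes in the light, and 5.33, 5.13 and 5.30 in wounded and 5.85, 5.13 and 5.91 in intact rosettes in the dark. GIS and TRY both stood highest in intact rosettes in the light, as the choice requires, with 3.93-fold and 2.8-fold lower levels in wounded ones (log2 -1.98 and -1.48). ARGONAUTE7 (AGO7), which binds a microRNA to start the making of small RNAs that time leaf development, had 4.45, 4.29 and 4.33 in wounded and 6.69, 6.74 and 5.43 in intact rosettes in the light, and 3.35, 3.78 and 3.00 in wounded and 4.28, 4.49 and 4.28 in intact rosettes in the dark. Its wounded arrays in the light overlapped the intact ones in the dark, and its wounded arrays in the dark lay below both. TRY kept a light difference after wounding (1.31 ± 0.26, SE, limma adjusted p = 0.00758), and GIS (limma adjusted p = 0.073) and AGO7 (limma adjusted p = 0.0646) did not pass. AGO7 passed with the replicate block (limma adjusted p = 0.0164), at least 1.28-fold higher with its wounded dark level, below 4, set to 4. Wounding in the dark could not be read for GIS, whose means were below 4 in both dark groups, and gave -0.37 ± 0.26 for TRY (limma adjusted p = 0.525). AGO7 was at least 1.28-fold lower in wounded rosettes in the dark and passed with the block only (limma adjusted p = 0.0269, and 0.0913 without it).

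**Figure D2:**
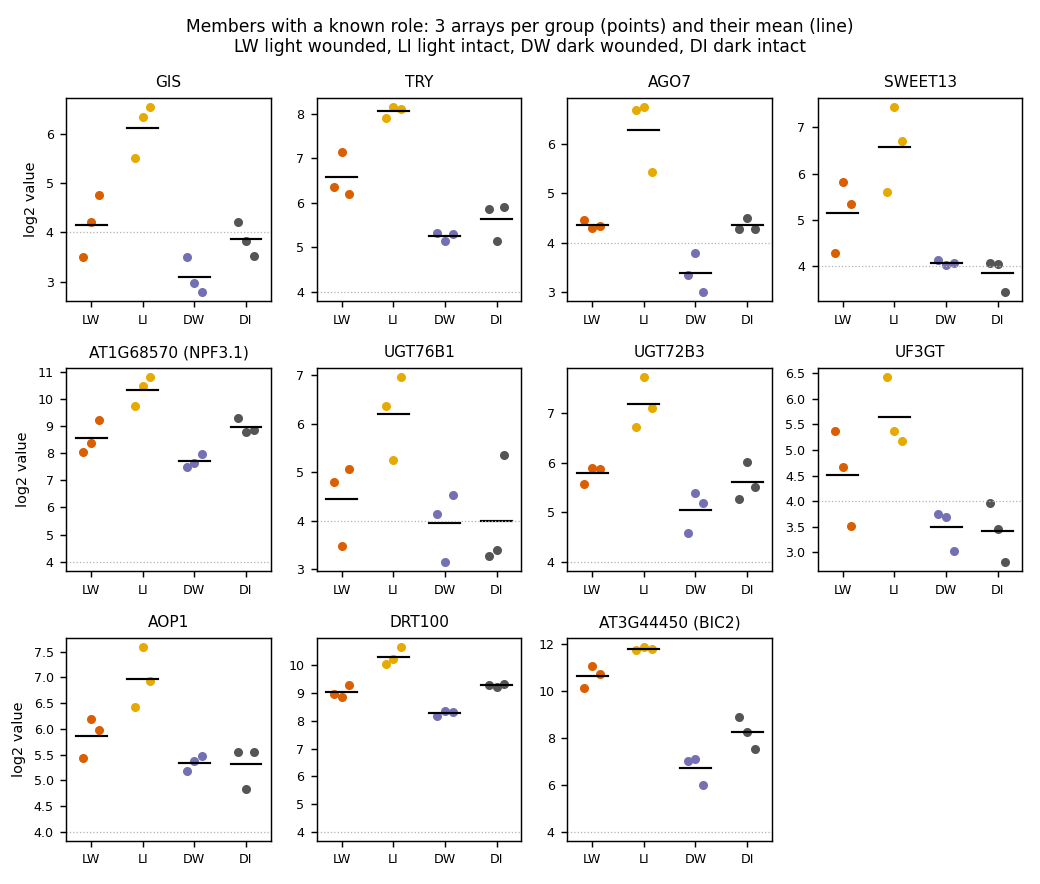
Log2 values (y axis) of the 11 genes with a known role in the 4 groups (x axis), with points for the 3 arrays of a group, lines for their mean and a dotted line at 4, the minimum used to call a probe set bright. Intact rosettes in the light stand highest in every panel by choice, and in TRY, SWEET13, UGT76B1, UGT72B3, UF3GT and AOP1 the wounded and intact arrays in the dark overlap.

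Among transporters, SWEET13, which exports sucrose from cells, had 4.27, 5.81 and 5.33 in wounded and 5.61, 7.43 and 6.71 in intact rosettes in the light, and 4.13, 4.01 and 4.07 in wounded and 4.07, 4.05 and 3.44 in intact rosettes in the dark. Its wounded and intact arrays overlapped in the light across experiments, although each experiment had the wounded value lower. It was near the brightness minimum in the dark with and without a wound, where its change was 0.22 (95% interval -0.77 to 1.2). AT1G68570, listed as NPF3.1 of the nitrate and peptide transporter family, had 8.03, 8.36 and 9.22 in wounded and 9.74, 10.46 and 10.79 in intact rosettes in the light, and 7.50, 7.63 and 7.95 in wounded and 9.28, 8.78 and 8.85 in intact rosettes in the dark. Its wounded arrays were separate from the intact ones in both conditions, and it fell by wounding in the dark to a level 2.42-fold lower (-1.27 ± 0.33, limma adjusted p = 0.034). That call was lost when any of 6 arrays was left out in turn, with the highest limma adjusted p, 0.138, without dark intact replicate 1.

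The group holds 3 glycosyltransferases with a symbol. UGT76B1, which attaches glucose to salicylate and to an isoleucine-derived acid in defence, had 4.79, 3.48 and 5.07 in wounded and 6.37, 5.26 and 6.96 in intact rosettes in the light, and 4.13, 3.15 and 4.52 in wounded and 3.26, 3.39 and 5.35 in intact rosettes in the dark. Replicate 2 was its lowest array in every group except intact rosettes in the dark, and wounded and intact arrays overlapped there. UF3GT, also called UGT79B1, which decorates anthocyanins, had 5.37, 4.67 and 3.51 in wounded and 6.42, 5.38 and 5.17 in intact rosettes in the light, and 3.76, 3.69 and 3.02 in wounded and 3.97, 3.46 and 2.82 in intact rosettes in the dark, where all 6 arrays lay below 4. In wounded rosettes it was at least 1.43-fold higher in the light, with the dark level set to 4, and passed with the block only (limma adjusted p = 0.00664, and 0.192 without the block). UGT72B3, of a family that glycosylates phenolic compounds, had 5.56, 5.90 and 5.88 in wounded and 6.72, 7.72 and 7.10 in intact rosettes in the light, and 4.57, 5.39 and 5.18 in wounded and 5.27, 6.02 and 5.51 in intact rosettes in the dark. In UGT72B3 the wounded value was the lower one in each experiment under both conditions (changes of -0.70, -0.63 and -0.33 in the dark). Its 2 contrasts did not pass without the block (limma adjusted p = 0.356 for wounding in the dark and 0.127 for light in wounded rosettes) and passed with it (limma adjusted p = 0.0285 and 0.00486). AT1G01390, also a member, lies 2 protein-coding genes away from UGT72B3 on chromosome 1 of the TAIR10.1 assembly, and had 4.43, 4.50 and 4.78 in wounded and 5.19, 6.09 and 5.66 in intact rosettes in the light, against 4.10, 4.59 and 3.50 in wounded and 3.97, 4.19 and 3.55 in intact rosettes in the dark. It left the group without light intact replicate 2, and whether related transcripts share these probe sets was not tested.

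AOP1, a dioxygenase of the group that includes the enzymes of glucosinolate side chains, had 5.43, 6.20 and 5.97 in wounded and 6.42, 7.59 and 6.94 in intact rosettes in the light, and 5.17, 5.37 and 5.48 in wounded and 5.54, 4.83 and 5.55 in intact rosettes in the dark. It left the group without light intact replicate 2, when its wound change in the light was -0.81. DRT100, a leucine-rich repeat protein, had 8.96, 8.85 and 9.30 in wounded and 10.06, 10.22 and 10.66 in intact rosettes in the light, and 8.17, 8.35 and 8.33 in wounded and 9.29, 9.22 and 9.33 in intact rosettes in the dark. Its 4 groups of arrays were separate apart from the wounded light and intact dark ones, which overlapped. AT3G44450, the locus of BIC2, which inhibits cryptochromes and is itself induced by light, had 10.13, 11.03 and 10.71 in wounded and 11.73, 11.85 and 11.78 in intact rosettes in the light, and 7.01, 7.10 and 5.97 in wounded and 8.88, 8.25 and 7.52 in intact rosettes in the dark. All its light arrays lay above all its dark arrays, and within each light condition the wounded arrays lay below the intact ones.

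By deposited values, the 6 largest light differences in intact rosettes belonged to AT5G42760, AT5G01790, AT2G15020, AT3G44450, AT5G59130 and AT5G59350, at 4.70, 4.34, 3.91, 3.57, 3.20 and 3.01. The intact dark mean of AT5G42760 was below 4, so that its light level was at least 13.5-fold higher and its place before AT5G01790 and AT2G15020 is not settled. AT5G42760 had 5.67, 6.31 and 7.87 in wounded and 7.18, 7.77 and 8.32 in intact rosettes in the light, and 3.19, 2.22 and 4.38 in wounded and 2.51, 2.39 and 4.27 in intact rosettes in the dark. Replicate 3 was its highest array in every group, and its wound change in the light (-1.51, -1.45 and -0.45 by experiment) was accompanied by an overlap of wounded and intact arrays. AT5G01790 had 6.86, 7.50 and 6.93 in wounded and 8.61, 9.52 and 8.02 in intact rosettes in the light, and 4.35, 4.71 and 4.50 in wounded and 4.56, 4.31 and 4.27 in intact rosettes in the dark. Its 6 dark arrays overlapped, with a wound change of 0.14 (95% interval -0.55 to 0.84), beside -1.62 in the light, which chose it. AT2G15020 had 7.84, 8.72 and 8.69 in wounded and 9.98, 10.46 and 9.76 in intact rosettes in the light, and 4.08, 5.30 and 4.72 in wounded and 6.17, 6.03 and 6.28 in intact rosettes in the dark. Its wounded arrays lay below its intact arrays in both conditions, with changes of -1.65 in the light and -1.46 in the dark. AT5G59130 had 6.17, 6.51 and 4.37 in wounded and 7.66, 8.32 and 5.98 in intact rosettes in the light, and 4.13, 5.38 and 3.38 in wounded and 4.16, 5.31 and 2.90 in intact rosettes in the dark. Replicate 3 was its lowest array in every group, and its light difference after wounding (1.39 ± 0.80) passed with the block only (limma adjusted p = 0.00101, and 0.291 without the block).

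The wounded arrays in the dark were not used to choose the genes, and they allow a test of wounding in the dark. The intact dark arrays it is set against were chosen to be low, which works against a fall. Of the 77 genes, 13 passed as lower in wounded rosettes and none as higher (limma, Benjamini-Hochberg over 13567 probe sets), which is 16.9%, where 2.28% of all tested probe sets were called lower and 5.84% higher. The median change was -0.42, against -0.08 over all tested probe sets, and by experiment it was -0.38, -0.45 and -0.55. Of the 77 genes, 64 lay below 0 and 13 above, where 62.0% of all tested probe sets lay below 0. In 47 genes the wounded value was lower in all 3 experiments, and in 1 gene it was higher in all 3. The same shares over all tested probe sets were not computed. At an unadjusted p under 0.05, 25 were lower and none higher, but the share of all tested probe sets at that limit was not computed. With the replicate number as a block, which pairs the arrays of an experiment, 20 passed as lower (26%) and none as higher (5.98% of all tested probe sets were lower and 9.08% higher), and they held all 13. The arrays of the 2 groups were separate for 28 of the 77 with wounded below intact (11.2% of all tested probe sets) and for none with wounded above intact (10.2% of all tested). The 28 include genes with both dark means below 4, such as AT1G11700, AT4G30400 and GIS, whose fall could not be read.

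**Figure D3:**
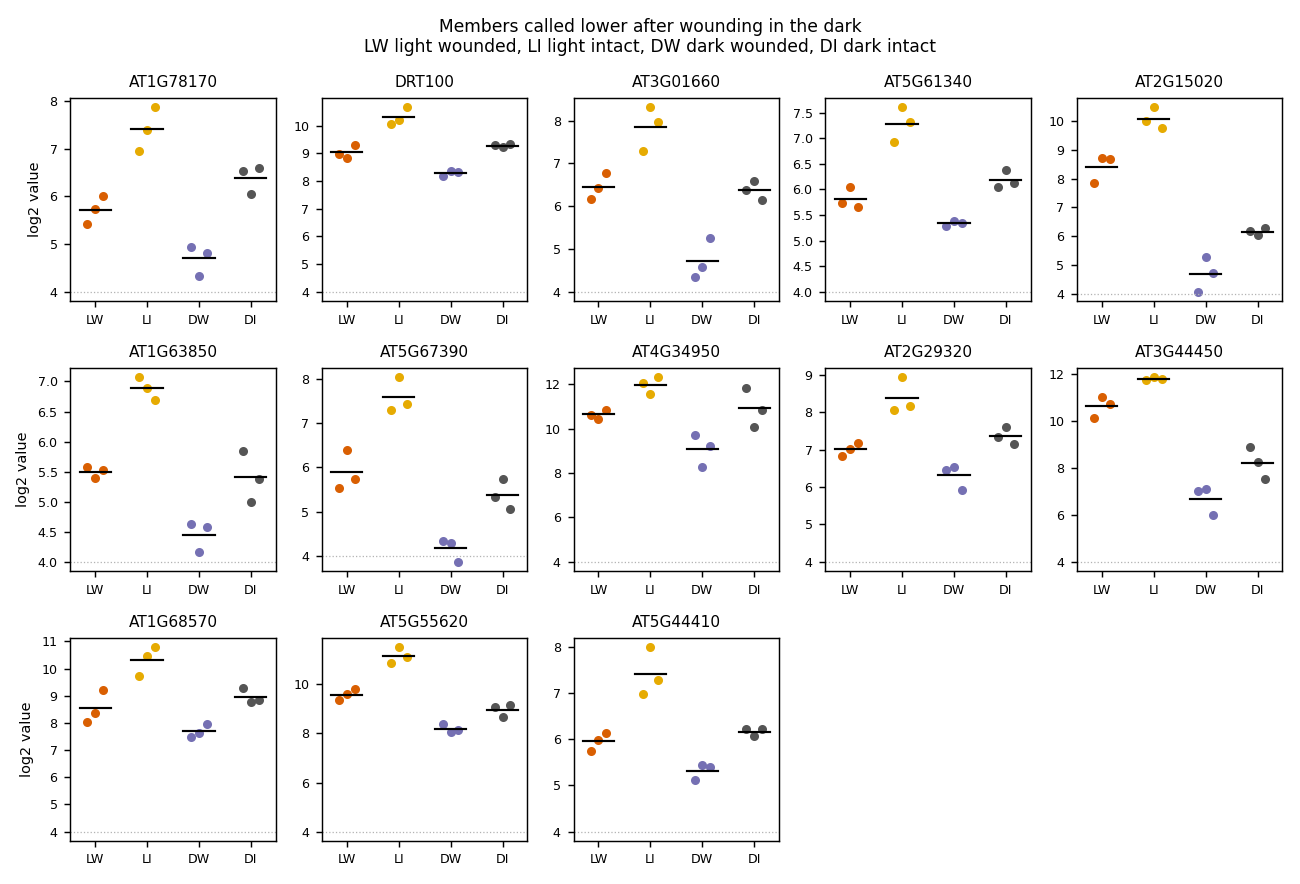
Log2 values (y axis) in the 4 groups (x axis) for the 13 genes that passed as lower in wounded rosettes in the dark, ordered by adjusted p, with points for arrays and lines for means. The wounded arrays lie below the intact arrays in the dark in all 13 panels.

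The number of calls in the dark depended on single arrays and on the ribosomal covariate. With the 25S value as a covariate, 1 of the 13 calls was kept, that of DRT100 (limma adjusted p = 0.0365). All 13 kept their sign and their median change was -1.18 with the covariate and -1.2 without it, while the median SE of the 77 was 0.48 with it and 0.32 without it. Leaving out each array in turn gave 4 to 16 calls in the dark, with 4 without dark intact replicate 1, 6 without dark wounded replicate 3, and 8 without dark wounded replicate 2 or dark intact replicate 2. For 3 genes the call stood without any 1 array. Of the 15 genes whose means were below 4 in both dark groups none was called. Of the 39 genes chosen also without light intact replicate 2, 10 passed as lower with a median change of -0.63, and 13 with the block.

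Of the 3 genes whose call stood without any 1 array, AT1G78170 had 4.93, 4.34 and 4.82 in wounded and 6.53, 6.05 and 6.59 in intact rosettes in the dark, and 5.41, 5.74 and 6.01 in wounded and 6.94, 7.39 and 7.86 in intact rosettes in the light. It was 3.22-fold lower in wounded rosettes in the dark (-1.69 ± 0.26, limma adjusted p = 0.00286), close to its difference in the light (-1.67). AT3G01660 had 4.35, 4.58 and 5.25 in wounded and 6.38, 6.59 and 6.15 in intact rosettes in the dark, and 6.16, 6.42 and 6.78 in wounded and 7.28, 8.31 and 7.98 in intact rosettes in the light. Its fall in the dark was 3.13-fold (-1.65 ± 0.30, limma adjusted p = 0.00567), with -2.03, -2.02 and -0.90 by experiment. DRT100, described above, fell 2-fold (-1.0 ± 0.17, limma adjusted p = 0.00472), with -1.12, -0.86 and -1.01 by experiment.

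The next 7 genes by adjusted p had calls that were lost without 1, 2 or 3 of the arrays taken singly. AT5G61340 and AT2G29320 belonged to the group only with light intact replicate 2. AT5G61340 had 5.28, 5.39 and 5.35 in wounded and 6.04, 6.38 and 6.12 in intact rosettes in the dark, and 5.74, 6.04 and 5.65 in wounded and 6.93, 7.60 and 7.32 in intact rosettes in the light. AT1G63850 had 4.63, 4.16 and 4.57 in wounded and 5.85, 5.00 and 5.38 in intact rosettes in the dark, and 5.57, 5.40 and 5.53 in wounded and 7.07, 6.89 and 6.70 in intact rosettes in the light. Both were separate between wounded and intact arrays in each light condition, with changes in the dark of -0.84 and -0.96 (limma adjusted p = 0.0148 and 0.0172). AT5G67390 had 4.34, 4.30 and 3.87 in wounded and 5.33, 5.74 and 5.06 in intact rosettes in the dark, and 5.54, 6.40 and 5.73 in wounded and 7.29, 8.03 and 7.42 in intact rosettes in the light. Wounded rosettes in the dark were its lowest group, near the brightness minimum (-1.2 ± 0.27, limma adjusted p = 0.0201). With the 25S covariate its change in the dark was -0.55 (limma adjusted p = 0.547) and that of AT5G61340 was -0.52 (limma adjusted p = 0.422). AT4G34950 was among the brightest, at 9.72, 8.26 and 9.23 in wounded and 11.84, 10.10 and 10.85 in intact rosettes in the dark, and 10.62, 10.46 and 10.86 in wounded and 12.08, 11.58 and 12.32 in intact rosettes in the light. It had the largest fall in the dark among the 77 (-1.86 ± 0.43, 3.64-fold, limma adjusted p = 0.0223), although its dark arrays spread by over 1 log2 unit within each group. AT2G29320 had 6.46, 6.53 and 5.93 in wounded and 7.35, 7.60 and 7.14 in intact rosettes in the dark, and 6.83, 7.02 and 7.18 in wounded and 8.06, 8.94 and 8.17 in intact rosettes in the light (-1.05 ± 0.25 in the dark, limma adjusted p = 0.0229). AT2G15020 and AT3G44450, whose arrays are given above, fell by wounding in the dark with changes of -1.46 ± 0.32 and -1.52 ± 0.37 (limma adjusted p = 0.0158 and 0.0272). AT1G68570, AT5G55620 and AT5G44410 completed the 13 with changes of -1.27, -0.78 and -0.85 (limma adjusted p = 0.034, 0.0391 and 0.0457). The call of AT5G55620 was lost without any of 7 arrays taken singly and that of AT5G44410 without any of 10, and AT5G44410 belonged to the group only with light intact replicate 2.

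**Figure D4:**
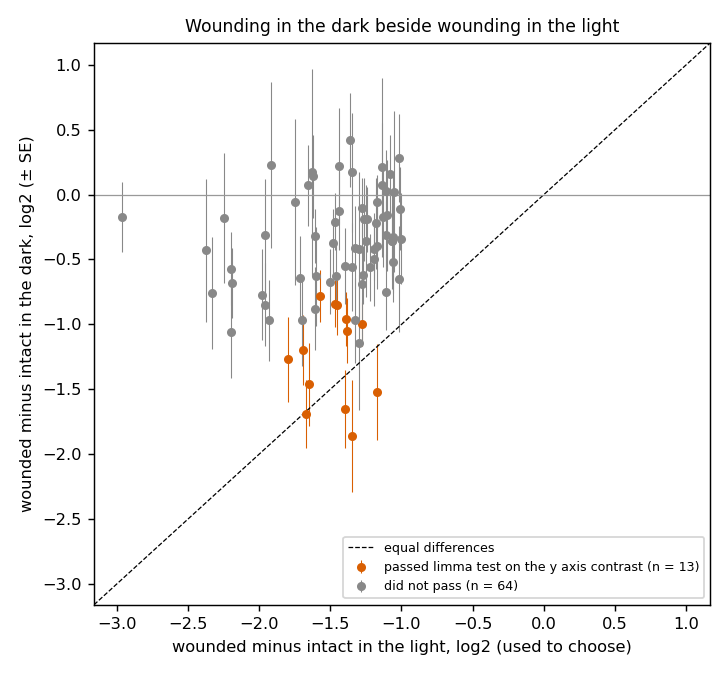
Wound change in the dark with its SE (y axis, log2) against wound change in the light (x axis, log2, used to choose the genes) for the 77 genes, with the 13 that passed in the dark in orange and the dashed line where both are equal. Of the 77 points 73 lie above the line, AT4G34950 lies lowest at -1.86, and 15 genes with both dark means below 4 are plotted at their deposited values.

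For 73 of the 77 genes the change was less negative in the dark than in the light, and for 4 it was more negative. The choice of high intact arrays in the light and low intact arrays in the dark pushes this difference in the same direction, so it is given with no test. The plot of wounding in the dark against wounding in the light shows the 4 exceptions, AT1G78170, AT3G01660, AT4G34950 and AT3G44450.

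The second measurement with arrays outside the choice is light against dark in wounded rosettes. Here the wounded arrays in the light were chosen to be low, which works against a higher level in the light. Of the 77 genes, 18 passed as higher in the light and none as lower (limma, Benjamini-Hochberg), which is 23.4%, where 4.86% of all tested probe sets were called higher and 7.42% lower. At an unadjusted p under 0.05, 40 were higher and 1 lower, again with no share of all tested probe sets computed. With the replicate block 39 passed as higher (50.6%) and none as lower (14.2% of all tested probe sets were higher and 14.7% lower), and these held all 18. The median difference was 0.70, against 0.01 over all tested probe sets, and by experiment it was 0.55, 0.69 and 0.92. Of the 77 genes, 75 lay above 0, where 48.6% of all tested probe sets lay below 0. In all 3 experiments 64 genes were higher in the light, with no share computed over all tested probe sets. In 43 genes all wounded arrays in the light were above all wounded arrays in the dark (15.7% of all tested probe sets). The 43 include genes with both wounded means below 4, such as AT3G17640, AT2G39920 and AT4G30400, whose difference could not be read. Leaving out each array gave 11 to 22 calls, the lowest without light wounded replicate 3, and the 25S covariate kept 15 of the 18. Among the 39 genes chosen also without light intact replicate 2, 16 passed, and 24 with the block, with a median difference of 1.03.

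Wounded rosettes thus still held more of these transcripts in the light than in the dark for part of the group. AT3G44450 (BIC2) was 15.2-fold higher (3.93 ± 0.37, limma adjusted p = 1.41e-04), and AT2G15020 was 13.1-fold higher (3.71 ± 0.32, limma adjusted p = 8.94e-05). AT5G42760 was at least 6.14-fold higher with its dark level set to the brightness minimum of 4 (limma adjusted p = 0.00924), and AT5G01790 by 2.58 ± 0.32 (limma adjusted p = 5.99e-04). These 4 genes also had the largest light differences in intact rosettes. AT5G55620 had 9.37, 9.60 and 9.81 in the light and 8.38, 8.08 and 8.13 in the dark in wounded rosettes, and 10.86, 11.52 and 11.11 in the light and 9.07, 8.67 and 9.18 in the dark in intact ones (1.40 ± 0.20 in wounded rosettes, limma adjusted p = 0.00152). AT1G60590 had 6.93, 6.18 and 6.53 in the light and 5.56, 4.23 and 4.15 in the dark in wounded rosettes, and 8.23, 8.17 and 8.09 in the light and 5.41, 5.50 and 5.67 in the dark in intact ones (1.90 ± 0.32 in wounded rosettes, limma adjusted p = 0.00344). In both the light and dark arrays were separate with and without a wound. AT5G67390 (1.72), AT3G01660 (1.73), AT5G59350 (1.5), TRY (1.31) and AT1G63850 (1.05) followed, and their calls stood without any 1 array. The other 7 called genes, with their log2 differences, were AT5G41900 (at least 1.93-fold, with its dark level set to 4), DRT100 (0.75), AT4G26130 (0.92), AT1G78170 (1.02), AT4G34950 (1.58), AT4G24700 (1.16) and AT5G53020 (0.74), each of which lost its call without at least 1 array.

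**Figure D5:**
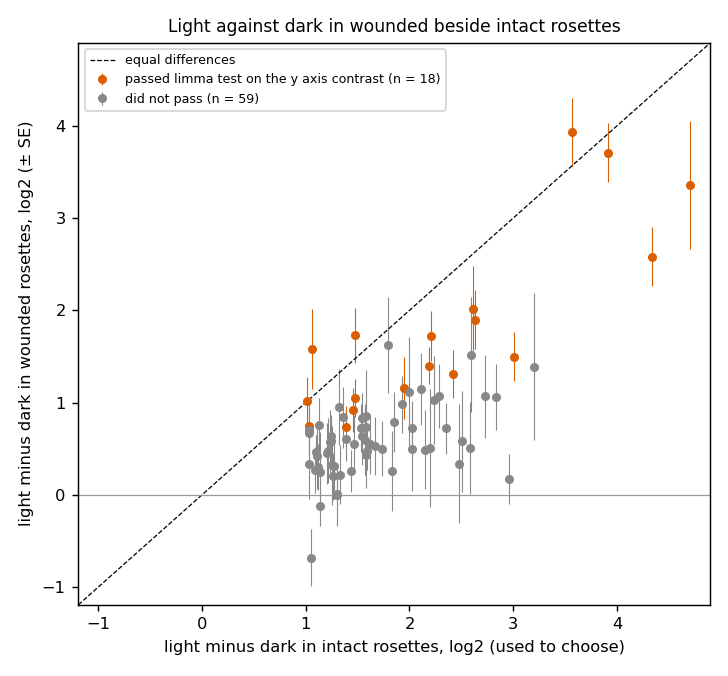
Light minus dark in wounded rosettes with its SE (y axis, log2) against light minus dark in intact rosettes (x axis, log2, used to choose the genes) for the 77 genes, with the 18 that passed in wounded rosettes in orange and the dashed line where both are equal. All but 2 genes lie above 0, and AT3G44450 stands at 3.93, above its difference in intact rosettes of 3.57.

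Both calls, lower by wounding in the dark and higher in the light in wounded rosettes, were made for 9 genes, and for 17 with the replicate block. The contrasts share the wounded dark arrays, so a low value there moves both, and the count is given with no test. The share of all tested probe sets with both calls was not computed, so these counts are a description only. A fall in the dark could not be read for the 15 genes with both dark means below 4, and for the 62 others the median change in the dark was -0.54.

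The 77 genes can be set beside the 2 groups that met only 1 of the conditions. Of 315 genes that were light-high by the same limits without the wound fall, 5 passed as lower by wounding in the dark (1.59%) and 30 as higher (9.52%), with a median change of 0.05. Of 135 genes lowered by wounding in the light without being light-high, 58 passed as lower in the dark (43%) and none as higher, with a median change of -0.90. The values for the 77 were 16.9% and -0.42. In wounded rosettes 158 of the 315 light-high genes (50.2%) and 1 of the 135 others (0.741%) were called higher in the light, against 18 of the 77 (23.4%). Of the 135, 33 were called lower in the light (24.4%). The intact dark arrays were chosen to be low in the 77 and in the 315. The 135 had to fail the light condition, which works toward a fall in the dark. The wounded light arrays were chosen to be low in the 77 and in the 135. The 315 had to fail the wound condition, which works toward a higher level in the light in wounded rosettes. The differences between these groups were not tested.

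Of 10 lists of genes for the pathways around this group, with 141 entries, 27 entries had a probe set of their own and 23 were tested, of which 1, AT3G44450, belongs to the 77. In the list of light signalling and photoprotection 3 of 19 entries were tested. The bZIP factor HYH had 8.14, 8.53 and 9.11 in wounded and 8.15, 8.31 and 9.01 in intact rosettes in the light, and 7.14, 7.20 and 7.53 in wounded and 6.36, 5.98 and 7.91 in intact rosettes in the dark, and neither wound contrast passed. AT3G52740 (BIC1), the close relative of BIC2, had 8.11, 8.67 and 8.45 in wounded and 8.94, 9.69 and 9.13 in intact rosettes in the light and 5.18, 5.38 and 5.48 in wounded and 5.39, 4.68 and 6.54 in intact rosettes in the dark. BIC1 was higher in the light in wounded rosettes (3.07 ± 0.38, limma adjusted p = 6.47e-04), as BIC2 was. Its change by wounding in the light was -0.84 ± 0.38, short of the limit of the group, that of BIC2 was -1.17 ± 0.37, and limma called neither without the block. With the block BIC2 was called and BIC1 was not, but BIC2 was chosen on this contrast, so its call supports nothing. The clock gene GI, the 1 tested member of 16, was higher in the light in wounded rosettes (2.29 ± 0.25, limma adjusted p = 3.27e-04) and its changes by wounding were -0.11 in the light and -0.02 in the dark, neither of which passed. In the rapid wound and jasmonate list all 7 tested of 18 were called higher by wounding in the light and in the dark. Of all tested probe sets 8.48% and 5.84% were called higher. The median changes of the 7 were 3.1 and 2.49, against -0.15 and -0.08 over all tested probe sets. Of 4 tested of 14 chlorophyll genes none passed in any contrast, and 2 passed as lower with the block for wounding in each condition. With the block 15.8% of all tested probe sets were called lower by wounding in the light and 5.98% in the dark. In the cell wall list 3 of 23 were tested, and EXPA8 passed as lower by wounding in the light and in the dark, while EXPB1 is the gene that met the conditions of the choice and was left out by name. Of 2 tested dark and sugar starvation genes both were called lower in the light in wounded rosettes, where 7.42% of all tested probe sets were. The lists of brassinosteroid and growth regulators and of aquaporins had no named probe set and were not analysed here.

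The other 44 of the 77 genes had means of 3.68 to 11.54 in wounded and 5.01 to 12.59 in intact rosettes in the light, and of 2.93 to 10.02 in wounded and 3.54 to 10.00 in intact rosettes in the dark. Their light differences in intact rosettes were 1.03 to 2.83 and their wound changes in the light -1.92 to -1.0. In the dark the wound changes were -1.14 to 0.42 with a median of -0.36, and 1 of the 44 was called lower (AT5G44410), where 2.28% of all tested probe sets were. For light in wounded rosettes 4 of the 44 were called higher, where 4.86% of all tested were. Up to 10 called genes of each of these contrasts had been set apart by adjusted p before the 44 were counted. Both counts are therefore low by that split and are no measure of the group. AT1G73600 was the brightest of the 77, with 11.53, 12.03 and 11.06 in wounded and 12.13, 13.63 and 12.01 in intact rosettes in the light, and 9.96, 11.04 and 9.05 in wounded and 9.54, 11.20 and 9.25 in intact rosettes in the dark. Its replicate 2 was the highest of each group, and without light intact replicate 2 its wound change in the light was -0.53. AT5G54130 was the only one of the 77 with a further probe set of its own, which read 2.8 for light in intact rosettes, -1.46 for wounding in the light, 0.03 for wounding in the dark and 1.3 for light in wounded rosettes. The same values from the brighter probe set were 2.83, -1.36, 0.42 and 1.06.

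Among these 44 were the last called genes in the light comparison of wounded rosettes. AT5G41900 had 4.78, 4.85 and 5.22 in the light and 3.02, 1.72 and 4.05 in the dark in wounded rosettes, and 6.23, 6.03 and 6.43 in the light and 3.39, 3.29 and 4.18 in the dark in intact ones. AT4G26130 had 8.37, 8.40 and 8.20 in the light and 7.62, 7.37 and 7.20 in the dark in wounded rosettes, and 9.53, 9.51 and 9.10 in the light and 8.46, 7.83 and 7.46 in the dark in intact ones. Both had separate light and dark arrays after wounding. AT4G24700 had 6.91, 7.60 and 7.83 in the light and 6.07, 6.38 and 6.42 in the dark in wounded rosettes, and 8.20, 9.47 and 8.71 in the light and 6.53, 6.66 and 7.35 in the dark in intact ones. AT5G53020 had 5.19, 5.24 and 5.21 in the light and 4.49, 4.49 and 4.44 in the dark in wounded rosettes, and 6.25, 7.08 and 6.13 in the light and 5.25, 5.18 and 4.85 in the dark in intact ones. The wounded arrays of AT5G53020 were close together in each condition, and AT4G26130 and AT5G53020 belonged to the group only with light intact replicate 2.

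With the replicate block 7 further genes passed as lower by wounding in the dark, AT1G49470, AGO7, UGT72B3, AT2G28720, AT1G19960, AT4G34220 and AT2G23840. AT2G28720 had 6.30, 7.39 and 6.72 in wounded and 7.56, 8.20 and 7.55 in intact rosettes in the dark, and 6.95, 7.53 and 7.38 in wounded and 8.52, 9.70 and 8.75 in intact rosettes in the light (dark change -0.97, limma adjusted p = 0.00325 with the block and 0.136 without it). AT2G23840 had 7.49, 8.40 and 7.29 in wounded and 8.53, 9.02 and 7.61 in intact rosettes in the dark, and 8.57, 9.10 and 8.37 in wounded and 9.60, 10.30 and 9.22 in intact rosettes in the light (dark change -0.65, limma adjusted p = 0.0192 with the block and 0.459 without it). In AT2G23840 the arrays of the 2 dark groups overlapped while the wounded one was the lower in each experiment. AT1G19960 had 8.75, 9.22 and 8.54 in wounded and 9.27, 9.67 and 9.46 in intact rosettes in the dark, and 9.11, 9.19 and 9.01 in wounded and 10.54, 11.09 and 10.04 in intact rosettes in the light. AT4G34220 had 6.87, 6.30 and 5.28 in wounded and 7.22, 7.21 and 6.91 in intact rosettes in the dark, and 7.09, 6.61 and 6.74 in wounded and 7.95, 8.41 and 8.07 in intact rosettes in the light. For both the dark arrays were separate with wounded below intact, and all 4 of these genes belonged to the group only with light intact replicate 2. With the 25S covariate the dark change of AT2G23840 was -0.03 (limma adjusted p = 0.988) and that of AT1G49470 -0.35 (limma adjusted p = 0.827), and none of the 7 passed.

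Besides those named above, the group holds AT1G13650, AT4G34630, AT3G52360, AT5G41050, AT5G09460, AT4G18570, AT4G12980, AT4G14090, AT1G70985, AT4G16447, AT5G02890, AT4G33040, AT3G22550, AT2G41000, AT2G19310, AT1G62870, AT3G56080, AT1G70550, AT1G76960, AT5G66820, AT4G16750, AT1G54820, AT5G45650, AT5G51770, AT1G62050, AT1G67750, AT3G60380, AT2G45340, AT2G25625, AT5G40150 and AT5G61570.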

How the data were processed

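Transcripts in 12 rosette samples were measured on Affymetrix arrays. The deposited log2 values of the authors were made with GCRMA, per the submitters' processing notes, with no version given, and cover 22810 probe sets, 64 of them controls. They run from 1.46 to 15.85, and hold no detection calls. The platform annotation gave 1 gene to 13513 probe sets, several to 503 and none to 8730. Genes were placed on loci with RefSeq's TAIR10.1 table, which left 29 of the single-gene probe sets unmatched.

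Probe sets with log2 of at least 4 on at least 3 arrays (13567) were fitted on all 12 arrays with a mean for each group (limma 3.58.1, R 4.3.3, residual df 8, prior df 3.19), with empirical Bayes moderation and Benjamini-Hochberg adjustment per contrast. A call is a two-sided adjusted p under 0.05. SEs are limma's. With arrays, precision is limited by how many there are. The fit was tested on simulated data. Replicate numbers pair the arrays, since each of the 3 experiments held all 4 treatments per the series description. After removal of group means all 18 same-numbered pairs had r of 0.30 to 0.76 across probe sets and the 36 other pairs -0.47 to -0.07. The fit without the block is the main one.

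The members, lists and tests were chosen with earlier results of these data known. For the 77, both contrasts used by the choice are descriptions, with counts of limma calls that support nothing. Levels below 4 were set to 4 for folds written as "at least". Every array is given for the 10 genes with the largest fall in the light, the 6 with the largest light difference, up to 10 called in each tested contrast by adjusted p, and up to 8 further genes of known role. Genes named otherwise, and their array values, were picked after their values were seen. Alternatives were the block, centring, quantile normalization, other brightness limits, trend and robust moderation, the 25S covariate and leaving out each array. No sequences were used here.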

Additional observations from a re-analysis of the deposited data

Results flagged for a closer look

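AT5G54130 had a wounded value above the intact one in the dark in all 3 experiments and below it in the light in all 3. Its change in the dark was 0.42, with a limma adjusted p of 0.639, and -1.36 in the light, which chose it. A second probe set of this gene did not repeat the pattern in the dark, with 6.18, 6.23 and 5.82 in wounded and 5.68, 6.35 and 6.11 in intact rosettes, the wounded value being higher in experiment 1 only. The difference between the conditions was not tested, and the direction in the light was fixed by the choice.

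In wounded rosettes AT3G52360 was less abundant in the light in all 3 experiments, and in intact rosettes it was more abundant in the light in all 3. The difference in wounded rosettes was -0.68, with 6.28, 6.79 and 6.52 in the light and 6.90, 7.16 and 7.57 in the dark, and did not pass (limma adjusted p = 0.18). The change between wounded and intact rosettes was not tested, and this gene met the conditions of the group only with light intact replicate 2.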

How the results depend on the processing

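With 13 of the 77 genes called lower by wounding in the dark, the count was 20 with the replicate block, 21 with the block and arrays centred on their medians, 5 with no brightness filter, 1 with the 25S covariate and 4 to 16 when each array was left out. With 18 genes called higher in the light in wounded rosettes, the count was 39 with the block and 38 with the block and centring. It was 12 with no brightness filter, 15 with the 25S covariate and 11 to 22 without each array. The median change in the dark, -0.42, was -0.51 at a brightness minimum of 5, -0.31 with the 25S covariate and -0.52 to -0.41 without each array. The median difference in wounded rosettes, 0.70, ran from 0.67 to 0.77 without each array. The group itself, 77 genes, had 143 at differences of 0.8, 43 at 1.2, 62 with arrays centred on their medians and 46 to 116 without each array. No called gene changed direction under any setting. Among uncalled genes the sign did turn: over all settings 28 of the 77 had another sign for wounding in the dark, 18 of them with the 25S covariate, and 9 for light in wounded rosettes. At a brightness minimum of 5, 68 of the 77 were tested. The counts of called list genes stayed within 1.5 times the main count. The causes of these shifts were not tested.

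The 25S covariate widened the errors and moved the changes of single genes in both directions. With it 12 of the 13 dark calls missed the threshold. Whether the wider errors or the moved changes lost these calls was not tested. Every call of the 13 and of the 18 was kept with the block. The median SE of the 77 was 0.32 with 3 arrays a group, and levels below log2 4 are near the floor of the arrays.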
